A study of Mus musculus with 6 samples.

Results

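The genes described here are the thrombospondins and other matricellular proteins: Thbs1, Thbs2, Thbs3, Thbs4, Comp, Sparc, Sparcl1, Spp1, Ccn1 and Ccn2. They were read from every probe set of the deposited table whose single gene symbol is one of these 10. Of the 10 genes 9 were found, on 17 of the 45037 probe sets tested. No probe set had Spp1, which encodes osteopontin, as its single symbol, and Spp1 was not analysed here. One further probe set, which the platform's table gives to Thbs1 and a second gene, was left out.

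GLMT1, the tumour cell line used, takes its name from a lung metastasis tumour in GRS/A mice. It was placed under the back skin of male hosts, and 6 tumours were taken: 3 from GRS/A mice that carry the tenascin-C gene (WT) and 3 from tenascin-C-deficient GRS/A-TgH(TnC) mice (TNKO). The design gives an age of 8 weeks for the hosts and the sample labels one of 10 weeks, and each host received 100 microlitres at 10000000 cells per ml. Only the host genotype differed by label: line, strain, sex and age were shared, the tumour cells are not described as lacking tenascin-C, and all tumours come from 1 line. RNA of each whole tumour was hybridised to a 1-colour Affymetrix array, so fewer cells of a type and less RNA per cell cannot be told apart.

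Matricellular proteins are secreted into the extracellular matrix but do little to hold it together. They bind growth factors, proteases and cell surface receptors, and so alter how cells attach, migrate and respond to signals. Tenascin-C, the protein missing from the TNKO hosts, belongs to the same functional class, and many of these proteins are abundant in wounds and in tumour stroma.

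The deposited values are on a scale read as log2 from their range, and differences between arrays were very small on it. The median probe set spanned 5.46e-06 units over the 6 arrays. Of all probe sets 0.553% spanned more than 0.01, against 2 of the 17 described here. For this reason each difference, TNKO minus WT, is printed in deposited units and beside it in residual SDs, a residual SD being the spread of that probe set within the groups. They cannot be read as folds of RNA, and the number of arrays limits the precision. Levels say how bright a probe set is within the table and are not compared as amounts of RNA.

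No member passed the test. With limma's moderated test and Benjamini-Hochberg adjustment over all 45037 probe sets, 0 of the 17 probe sets had an adjusted p under 0.05, against 0.175% of all probe sets (0.133% lower and 0.0422% higher in TNKO hosts). At an unadjusted p under 0.05 there were 8 of 17 (20.3% of all probe sets), 6 lower in TNKO hosts (10.8%) and 2 higher (9.53%). Leaving out 1 array took that count of 8 to 5 without WT tumour 1, WT tumour 2 or TNKO tumour 2, and to 4 without WT tumour 3. The count over all 45037 probe sets fell too, from 9144 to 7144, 8131, 7035 and 6807 in that order. On each of the 7 probe sets of Ccn1, Ccn2 and Thbs1 the 3 TNKO tumours stood below the 3 WT tumours (13.8% of all probe sets were separated in that direction). The values of Comp, of 1 of 3 Thbs2 probe sets and of 1 of 3 Sparc probe sets stood higher in all 3 TNKO tumours (14.2% of all), but they lay below 0 with array medians subtracted and after quantile normalization. Those rescalings put 44672 and 43968 of all 45037 probe sets below 0, with median differences of -0.000764 and -0.000538. With medians subtracted Comp, the Sparc probe set and the Thbs2 probe set stayed above that median, as they had to, since all differences move alike. After quantile normalization Comp and the Sparc probe set lay above the median and the Thbs2 probe set below it. The remaining 7 probe sets overlapped between the groups. By group means 10 of the 17 were lower (45.6% of all probe sets) and 7 higher (54.4%). Probe sets of 1 gene report the same transcripts, so these counts of probe sets are not counts of independent results. At the brightest probe set of each gene 3 of 9 were separated lower (11.1% of all genes) and 1 higher (15%).

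**Figure D1:**
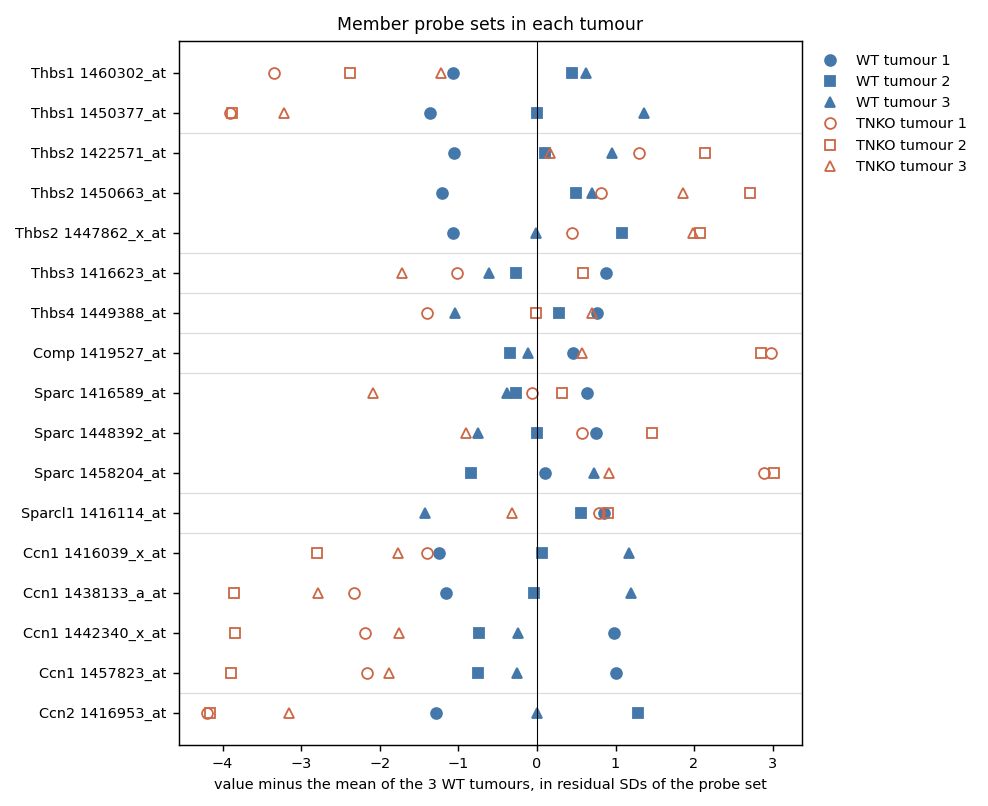
Values as deposited: each row is 1 member probe set and each point 1 tumour (filled, WT hosts; open, TNKO hosts), as the value minus the mean of the 3 WT tumours in residual SDs of that probe set. All open points lie left of the filled ones for the 7 probe sets of Thbs1, Ccn1 and Ccn2, and right of them for Comp, Thbs2 1450663_at and Sparc 1458204_at.

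Promoter sequence is shown for 3 members: Ccn1, whose TNKO tumours all stood below the WT tumours, Thbs2, whose means as deposited were higher in TNKO hosts, and Thbs4, whose groups overlapped widely. Each is the 250 bases before the gene's first base in RefSeq on GRCm38.p6, of strain C57BL/6J and not of GRS/A. All 3 genes lie on the minus strand, and the sequences are written 5′ to 3′ along the gene. Capitals mark matches to 4 motifs searched on both strands. GGAATG is the core bound by the TEAD factors that work with YAP. GTCTG is a core bound by the SMAD factors of TGF-beta signalling. TATAAA is the TATA box, where transcription machinery assembles. The last is TGANTCA, the letters bound by AP-1.
Ccn1, chr3:145649986-145650235: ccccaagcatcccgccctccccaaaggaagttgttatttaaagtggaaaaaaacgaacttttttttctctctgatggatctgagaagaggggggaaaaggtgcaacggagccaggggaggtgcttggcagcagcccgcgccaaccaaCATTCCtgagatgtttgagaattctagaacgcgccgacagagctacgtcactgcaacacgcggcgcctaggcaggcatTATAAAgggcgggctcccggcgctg
Thbs2, chr17:14694263-14694512: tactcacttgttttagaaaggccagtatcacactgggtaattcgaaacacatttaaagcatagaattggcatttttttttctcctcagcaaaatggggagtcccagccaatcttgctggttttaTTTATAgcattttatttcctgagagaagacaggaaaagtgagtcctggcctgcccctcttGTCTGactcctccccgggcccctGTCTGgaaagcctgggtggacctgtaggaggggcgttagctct
Thbs4, chr13:92794819-92795068: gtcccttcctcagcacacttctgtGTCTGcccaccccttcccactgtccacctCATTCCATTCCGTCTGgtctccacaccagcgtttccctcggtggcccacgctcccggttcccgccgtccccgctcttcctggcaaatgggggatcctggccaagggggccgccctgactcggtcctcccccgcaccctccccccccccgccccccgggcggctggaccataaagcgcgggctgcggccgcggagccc

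The Ccn1 stretch held the TEAD letters once, read as CATTCC from base -103, and the TATA letters once, from base -25. Positions count back from the gene's first base, so that -1 is the base just before it. The Thbs2 stretch held no TEAD letters, the SMAD letters at -66 and -43, and the TATA letters on the other strand at -126. In Thbs4 a pair of overlapping TEAD matches started at -197 and -192, the last base of one being the first of the next, and the SMAD letters started at -226 and -186. The AP-1 letters were in none of the 3. Among 32851 promoter stretches of this length 12.6% held the TEAD letters, 42.2% the SMAD letters, 12.4% the TATA letters and 6.75% the AP-1 letters. The stretches of Thbs3 and Sparc, not shown, held no TEAD letters. None was available for Thbs1, Ccn2, Comp or Sparcl1, so the genes shown do not stand for all lower or all higher members. A match is a description of the letters and not a site shown to be bound.

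Ccn1 (formerly Cyr61) encodes a heparin- and integrin-binding protein of the CCN family that is induced within hours by serum and mechanical load. Its brightest probe set, 1416039_x_at, had a level of 10.80. Relative to the WT mean, WT tumours 1 to 3 stood at -0.000291, 1.64e-05 and 0.000275, and TNKO tumours 1 to 3 at -0.000327, -0.000656 and -0.000415. The groups did not overlap, but WT tumour 1 and TNKO tumour 1 lay only 3.58e-05 apart. The difference was -0.000466 (SE 0.000178, n = 3 per group), or -1.99 residual SDs, with a limma adjusted p of 0.251. On probe set 1438133_a_at, at a level of 9.67, WT tumours stood at -0.000555, -1.55e-05 and 0.000571 and TNKO tumours at -0.00111, -0.00184 and -0.00133. The gap between the groups was 0.000553 there, and the difference -0.00142 (SE 0.000364, -2.98 residual SDs, limma adjusted p = 0.15).

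The dimmer pair of Ccn1 probe sets, which share 1 source sequence, ranged far wider. On 1457823_at (level 8.89) the WT tumours stood at 0.00662, -0.00495 and -0.00167 and the TNKO tumours at -0.0143, -0.0257 and -0.0124. On 1442340_x_at (level 8.97) the WT tumours stood at 0.00586, -0.00439 and -0.00146 and the TNKO tumours at -0.013, -0.0228 and -0.0104. TNKO tumour 2 was the lowest array on all 4 Ccn1 probe sets. The highest array was not the same on all 4: it was WT tumour 3 on the brighter pair and WT tumour 1 on the dimmer pair. The differences were -0.0175 (SE 0.00504) and -0.0154 (SE 0.00453), or -2.64 and -2.59 residual SDs, with limma adjusted p of 0.176 and 0.18. In deposited units 0.28% and 0.306% of all probe sets differed by more, while in residual SDs 13.6% and 14.2% did.

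Ccn2 (formerly Ctgf) encodes connective tissue growth factor, a CCN protein induced by TGF-beta and tied to fibrosis. Its only probe set, 1416953_at, had a level of 12.03. The WT tumours stood at -6.13e-05, 6.15e-05 and -1.6e-07 from their mean, and the TNKO tumours at -0.000201, -0.000199 and -0.000151. The 3 TNKO tumours lay close together, with an SD of 2.85e-05 against 6.14e-05 in WT hosts, and 8.93e-05 separated the nearest tumours of the groups. The difference was -0.000183 (SE 3.65e-05), and its -3.83 residual SDs were the widest of the 17 probe sets. The limma adjusted p was 0.112 (unadjusted p = 0.00513), so Ccn2 did not pass, and 4.55% of all probe sets had a smaller p.

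Thbs1 encodes thrombospondin-1, a trimeric protein released by platelets and stromal cells that restrains angiogenesis and can activate latent TGF-beta. On the brightest probe set, 1460302_at (level 9.71), the WT tumours stood at -0.000223, 9.21e-05 and 0.000131 and the TNKO tumours at -0.0007, -0.000498 and -0.000254. WT tumour 1 and TNKO tumour 3 nearly met, 3.11e-05 apart. The difference was -0.000484 (SE 0.00016, -2.31 residual SDs, limma adjusted p = 0.207). On 1450377_at (level 7.89) the TNKO tumours lay together at -0.000891, -0.000885 and -0.000733, clear of the WT tumours at -0.00031, -8.41e-07 and 0.000311. The groups were 0.000423 apart on this probe set. It differed by -0.000836 (SE 0.000174), or -3.66 residual SDs, with a limma adjusted p of 0.118. Both Thbs1 probe sets had the same order of tumours at the ends, WT tumour 3 the highest and TNKO tumour 1 the lowest.

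**Figure D2:**
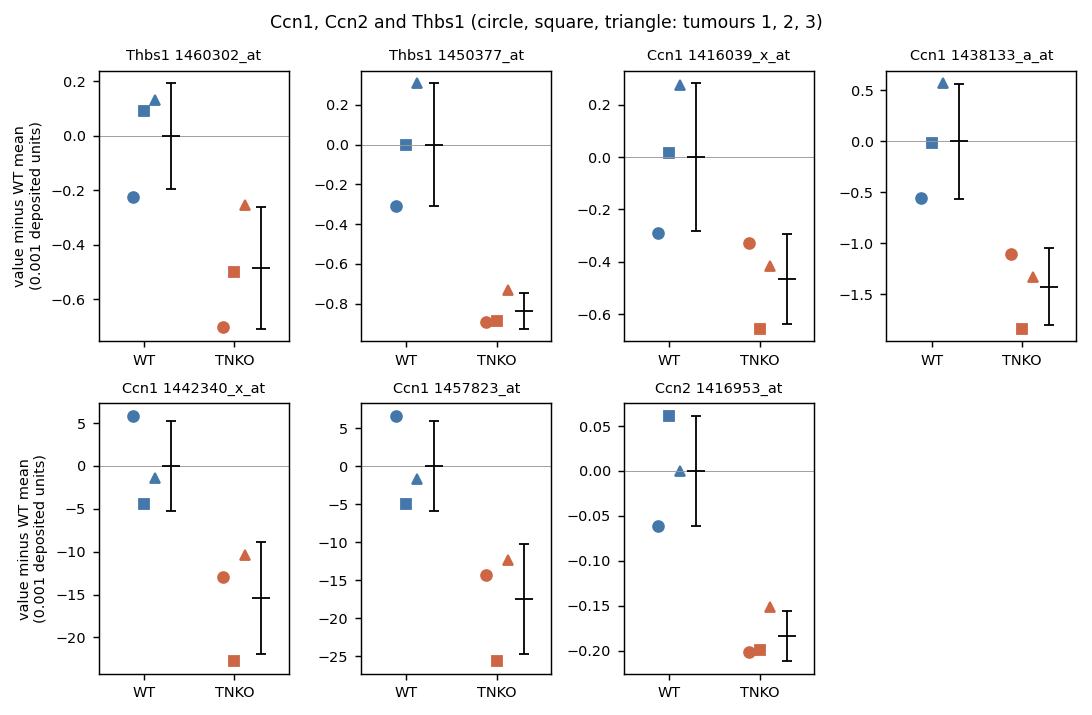
Each panel is 1 probe set of Thbs1, Ccn1 or Ccn2, with the value of each tumour minus the WT mean in 0.001 deposited units (circle, square and triangle for tumours 1, 2 and 3). Bars are the mean ± SD of 3 tumours, and each panel has its own vertical range. In all 7 panels the 3 TNKO tumours lie below the 3 WT tumours.

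Thbs2 encodes thrombospondin-2, the trimeric relative of thrombospondin-1 made by fibroblasts, which clears matrix metalloproteinase-2 and restrains vessel growth. Its group means were higher in TNKO hosts on 3 of 3 probe sets, none past the test. On the brightest, 1422571_at (level 10.84), the WT tumours stood at -5.45e-05, 5.5e-06 and 4.9e-05 and the TNKO tumours at 6.66e-05, 0.00011 and 8.5e-06. TNKO tumour 3 fell among the WT tumours. The difference was 6.17e-05 (SE 3.92e-05, 1.20 residual SDs, limma adjusted p = 0.449). On 1450663_at (level 10.63) the WT tumours stood at -8.3e-05, 3.44e-05 and 4.85e-05 and the TNKO tumours at 5.66e-05, 0.000187 and 0.000128. The groups were separated there by only 8.02e-06, and the difference of 0.000124 (SE 5.26e-05) had a limma adjusted p of 0.286. The third probe set, 1447862_x_at, differed by 9.34e-05 (SE 4.73e-05, limma adjusted p = 0.355) with overlapping groups. On all 3 the top value was that of TNKO tumour 2 and the bottom value that of WT tumour 1. As deposited, Thbs1 and Thbs2 thus had group means on opposite sides, and the contrast between the genes was not tested. Thbs2 lay below 0 on both rescalings, which move nearly all probe sets down. Relative to the median of the table, Thbs1 was lower and Thbs2 higher with medians subtracted. That restates the deposited sides, since all differences move by the same amount. After quantile normalization both genes were lower than the median.

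Comp, Thbs3 and Thbs4 encode the pentameric thrombospondins, which bind calcium and collagen and are known from cartilage, tendon and muscle. Comp, on 1419527_at, was the only one of the 17 probe sets below the median level of all (6.38 against 6.57). TNKO tumours 1 and 2 stood at 0.000224 and 0.000214 from the WT mean, TNKO tumour 3 at 4.32e-05, and the WT tumours at 3.44e-05, -2.58e-05 and -8.55e-06. The separation rested on a gap of 8.83e-06 between TNKO tumour 3 and WT tumour 1, and tumours 1 and 2 of the TNKO hosts carried the mean. The difference was 0.00016 (SE 5.74e-05, 2.14 residual SDs, limma adjusted p = 0.229).

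For Thbs3 the probe set 1416623_at (level 8.53) stood at 4.6e-05, -1.38e-05 and -3.22e-05 in WT tumours and at -5.32e-05, 3.04e-05 and -9.03e-05 in TNKO tumours. The groups overlapped, TNKO tumour 2 being second only to WT tumour 1. The difference was -3.77e-05 (SE 4e-05, limma adjusted p = 0.657). Thbs4, on 1449388_at (level 8.84), varied more within the groups than between them. It stood at 0.00119, 0.000431 and -0.00162 in WT tumours and at -0.00216, -1.02e-05 and 0.00108 in TNKO tumours. The difference of -0.000364 (SE 0.00119, limma adjusted p = 0.904) turned to 0.00023 without WT tumour 1 and to 0.000536 without TNKO tumour 1.

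Sparc encodes osteonectin, a collagen- and calcium-binding protein of bone, wounds and tumour stroma. Its brightest probe set, 1416589_at (level 12.80), stood at 2.17e-05, -8.89e-06 and -1.28e-05 in WT tumours and at -2.12e-06, 1.1e-05 and -7.09e-05 in TNKO tumours. TNKO tumour 3 was the low outlying value, and the other TNKO tumours lay within the WT range. The difference was -2.07e-05 (SE 2.59e-05, limma adjusted p = 0.714), and without TNKO tumour 3 it was 4.45e-06. The probe set 1448392_at differed by 1.27e-05 (SE 2.56e-05, limma adjusted p = 0.833), and by -5.49e-06 without TNKO tumour 2. The dim probe set 1458204_at (level 6.89) was separated, with TNKO tumours at 1.33e-05, 1.39e-05 and 4.24e-06 against WT tumours at 4.85e-07, -3.85e-06 and 3.36e-06. It differed by 1.05e-05 (SE 3.52e-06, 2.27 residual SDs, limma adjusted p = 0.213), and its gap between groups was 8.76e-07. The 3 probe sets of Sparc thus did not give 1 direction.

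Sparcl1 encodes hevin, a relative of SPARC found in vessels and in brain. Its probe set 1416114_at (level 8.54) stood at 0.000116, 7.63e-05 and -0.000192 in WT tumours and at 0.000107, 0.000122 and -4.24e-05 in TNKO tumours. WT tumour 3 was the lowest and TNKO tumour 3 the next, while the other 4 tumours lay close together. The difference was 6.21e-05 (SE 0.000103, limma adjusted p = 0.79), and it was -3.41e-05 without WT tumour 3. Endothelial markers had WT tumour 3 lowest as well: summed over 9 of 9 genes, WT tumours ranged from -0.000876 to 0.000612 around their mean and TNKO tumours from 0.000674 to 0.00207. TNKO tumour 3, next lowest in Sparcl1, lay above all WT tumours in that sum. WT tumour 3 was lowest in the fibroblast, macrophage, adipocyte and platelet sums too, though not in the other marker lists. It was also the lowest array on 19.6% of all probe sets, the largest share of the 6. The part of endothelial cells in the Sparcl1 values was not tested.

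**Figure D3:**
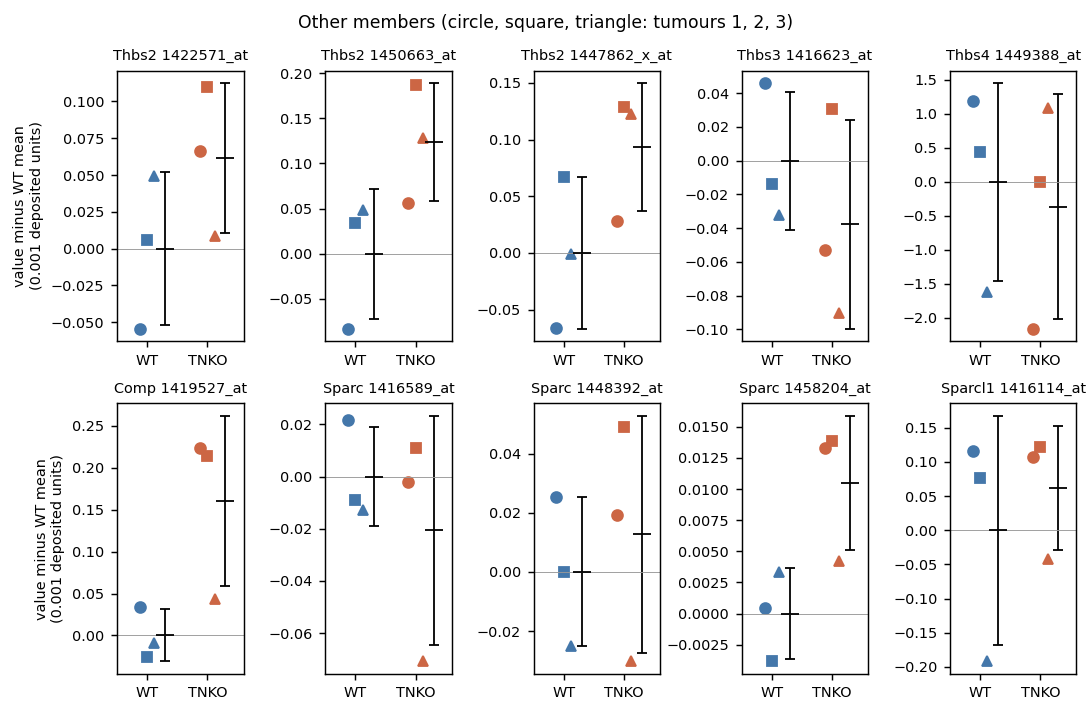
Each panel is 1 probe set of the members other than Ccn1, Ccn2 and Thbs1, with the value of each tumour minus the WT mean in 0.001 deposited units (circle, square and triangle for tumours 1, 2 and 3). Bars are the mean ± SD of 3 tumours on a vertical range of each panel's own; 3 of the 10 panels, of Comp, Thbs2 1450663_at and Sparc 1458204_at, have no overlap between groups.

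Read at the brightest probe set, 0 of the 9 genes passed (0.121% of 18193 genes did, 0.077% lower and 0.044% higher). At an unadjusted p under 0.05 there were 2 lower (8.43%) and 1 higher (9.99%). Of the 9 genes 6 had a lower mean in TNKO hosts (42.4% of all genes did) and 3 a higher one (57.6%). The median difference of the 9 was -0.61 residual SDs, against 0.28 over all genes. Over the 17 probe sets it was also -0.61, against 0.17 over all 45037. The 17 probe sets were bright, with a median level of 9.67 against 6.57. Their median absolute difference of 0.00016 stood against 1.64e-06 over all probe sets, but their spread within the groups was wider too. Their residual SDs ran from 4.61e-06 (Sparc 1458204_at) to 0.0066 (Ccn1 1457823_at), against a median of 1.78e-06 over all probe sets. As deposited, TNKO lay below WT on every probe set of Ccn1, Ccn2 and Thbs1, and the means of Thbs2 and Comp lay on the other side. After either rescaling Thbs2 and Comp were below 0, as were nearly all probe sets of the table.

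**Figure D4:**
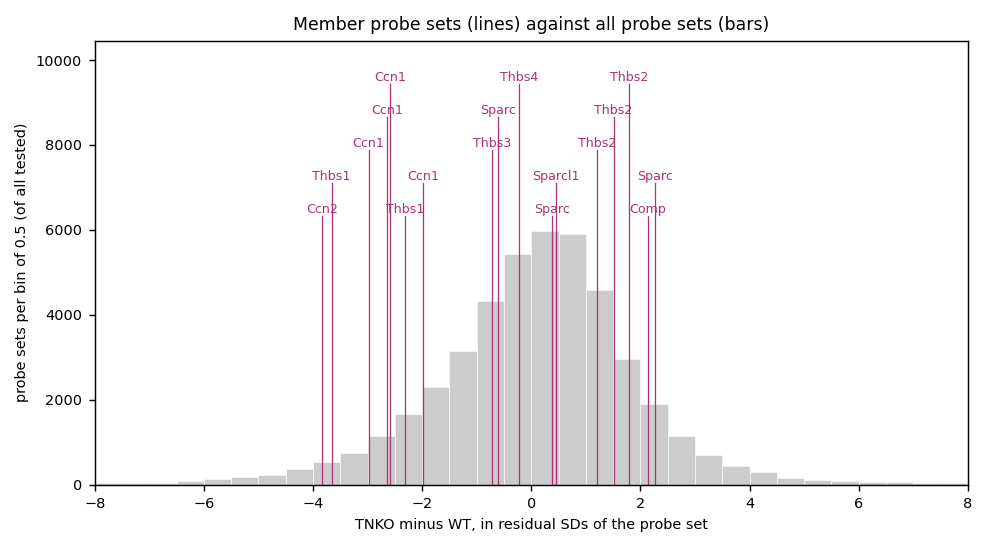
Grey bars count all 45037 probe sets by TNKO minus WT in residual SDs, in bins of 0.5 units, shown from -8 to 8. Lines mark the 17 member probe sets: Ccn2 stands at -3.83 and Thbs1 at -3.66 and -2.31, while Comp stands at 2.14 and Sparc between -0.61 and 2.27.

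Tnc itself, the gene deficient in the hosts, had a brightest probe set (1416342_at) at 9.02 ± 0.0243 in WT and 8.82 ± 0.0181 in TNKO hosts (SD, n = 3 each). It differed by -0.201 (limma adjusted p = 0.0537). The second Tnc probe set, 1456344_at, differed by -0.000671 (limma adjusted p = 0.125), and all 3 TNKO tumours were below the WT tumours on both. The widest difference of a member in deposited units, -0.0175 for Ccn1, lay between those of the Tnc probe sets. In residual SDs that Ccn1 probe set stood at -2.64, a smaller difference than on either Tnc probe set (-9.37 and -3.46).

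The other genes of the pathway were read from 5 lists, 88 of whose 89 genes had a probe set. By limma 0 of the 88 passed in either direction, with 17 at an unadjusted p under 0.05 (18.4% of all genes), 13 separated lower (11.1%) and 10 separated higher (15%). Other matricellular proteins gave 8 lower and 15 higher means among 23 genes. Tnc had the smallest p in that list. Smoc1, a calcium-binding relative of SPARC, followed with 1.41e-05 (limma adjusted p = 0.114), and Spock1 with 8.22e-06 (limma adjusted p = 0.148). The further CCN genes did not stand with Ccn1 and Ccn2 beyond their error: Ccn3 differed by -0.00018 (SE 0.00306), Ccn4 by -5.59e-05 (SE 8.13e-05), Ccn5 by -6.33e-05 (SE 3.97e-05) and Ccn6 by 8.2e-07 (SE 6.27e-07), with limma adjusted p from 0.444 to 0.986. The difference between these genes and Ccn1 or Ccn2 was not tested.

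Receptors gave no common direction. Of 14 thrombospondin receptors and partners 7 had lower and 7 higher means. Lrp1, the endocytic receptor that takes up thrombospondins, differed by 2.31e-05 (SE 7.85e-06, limma adjusted p = 0.216), the integrin gene Itga4 by 4.69e-06 (limma adjusted p = 0.242) and Calr, calreticulin, by 2.57e-06 (limma adjusted p = 0.283). Among 14 receptors and partners of osteopontin, SPARC and CCN proteins 8 means were lower and 6 higher. Cd44, the hyaluronan and osteopontin receptor, came nearest to passing: its TNKO tumours stood at -4.39e-05, -4.31e-05 and -3.87e-05 and its WT tumours at -5.71e-06, -2.33e-06 and 8.05e-06. All 3 TNKO tumours lay below the WT tumours and close together. The difference was -4.19e-05 (SE 4.16e-06), or -7.70 residual SDs, with a limma adjusted p of 0.0607. When only probe sets at or above the median level were tested, Cd44 passed (adjusted p = 0.0415). In the same list Itgb6, an integrin gene of epithelia, differed by 1.71e-06 (limma adjusted p = 0.0985) and the scavenger receptor gene Stab1, which takes up SPARC, by 0.000395 (limma adjusted p = 0.126).

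Of 15 proteases and cross-linkers 6 means were lower and 9 higher. Adamts4, an aggrecanase, had TNKO tumours at -0.000113, -0.000177 and -0.000134 and WT tumours at 3e-06, -1.97e-05 and 1.67e-05. All 3 TNKO tumours were below the WT tumours, with a difference of -0.000141 (SE 2.01e-05, -5.36 residual SDs, limma adjusted p = 0.0791). The stromelysin gene Mmp3 differed by -0.00143 (limma adjusted p = 0.245) and the gelatinase gene Mmp2 by 0.00233 (limma adjusted p = 0.379). The last list held 22 upstream regulators and other targets of YAP, TEAD and SRF, the factors that drive Ccn1 and Ccn2. Of these 22, 16 means were lower and 6 higher (42.4% and 57.6% of all genes). The median was -0.68 residual SDs, against 0.28 over all genes. The part of these factors in the Ccn1 and Ccn2 values was not tested. Tgfb2, a TGF-beta ligand, differed by -0.000332 (SE 8.5e-05, limma adjusted p = 0.15), Vcl, the adhesion protein vinculin, by -2.6e-05 (limma adjusted p = 0.226) and Amotl1, an angiomotin, by -2.49e-05 (limma adjusted p = 0.238).

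No marker of another cell type passed the test, but several marker lists leaned one way. Of all genes 57.6% had higher and 42.4% lower means in TNKO hosts. Endothelial markers, whose sums are given with Sparcl1, had higher means in 9 of 9. Fibroblast markers, all 10 measured, had 2 lower and 8 higher means (Dcn, decorin, was separated lower), and their summed level ranged from -0.0472 to 0.0304 around the WT mean in WT tumours and from 0.00786 to 0.0378 in TNKO tumours. Adipocyte markers had higher means in 6 of 6 measured (sums of -0.718 to 1.04 in WT and 0.553 to 2.89 in TNKO tumours), and skeletal muscle markers lower means in 9 of 9 (-0.594 to 0.774 and -4.6 to 0.489), with overlapping sums in both lists. TNKO tumours 1 and 2, the highest in Comp, also had the highest adipocyte sums (2.89 and 2.22) and the lowest muscle sums (-4.6 and -3.97). This was not particular to fat and muscle. The same tumours had the highest endothelial (0.00207 and 0.00144), fibroblast (0.0347 and 0.0378) and platelet sums (0.00188 and 0.00145). Their epithelial (-0.000699 and -0.00114) and mammary basal sums (-0.0015 and -0.00288) were the lowest. Tendon and cartilage markers, cells known for Comp and Thbs4, had 5 lower and 4 higher means of 9, with sums of -0.00474 to 0.00364 in WT and -0.0158 to 0.00622 in TNKO tumours. Platelet markers, cells known for Thbs1, had 2 lower and 2 higher of 4, with sums of -0.000201 to 0.000128 and 0.000558 to 0.00188. Pf4 alone carried those sums, with a difference of 0.0013 (limma adjusted p = 0.176) beside -4.43e-07, -5.38e-07 and 5.25e-07 for Ppbp, Itga2b and Gp9. Macrophage markers were higher in 8 of 10 (-0.00284 to 0.00186 and 0.00191 to 0.00267). Mrc1 made up most of those sums, with a difference of 0.00207 (limma adjusted p = 0.459). Its WT tumours stood at 0.00168, 0.00115 and -0.00283 and its TNKO tumours at 0.00247, 0.0017 and 0.00203. Hair and epidermis markers were higher in 6 of 9, with TNKO tumour 3 alone at a sum of 11.8. The part of these cells in the members' values was not tested.

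The labels name only tumour cells. Among epithelial markers Krt8 (11.45), Krt18 (8.92), Cdh1 (7.48) and Epcam (7.04) lay above the median level of all probe sets, and Krt19, Cldn4, Cldn7 and Elf3 (5.95 to 6.44) below it. Their sum ranged from -0.000186 to 0.000191 in WT and from -0.00114 to 0.00113 in TNKO tumours. For mammary basal markers, 2 lower and 3 higher of 5, the sums were -0.000524 to 0.000857 and -0.00288 to 0.00135. No array control passed the test, but many had separated groups, against 13.8% (lower) and 14.2% (higher) of all probe sets. Of the probe sets that read mouse control transcripts near the 5' end 4 of 5 were lower, by up to -0.000402, a size within the range of the Ccn1, Ccn2 and Thbs1 differences, and 4 were separated. Near the 3' end 4 of 5 were lower and 2 separated, but by at most -4.45e-06, and the one higher differed by 0.00107. Of the middle ones 4 of 6 were separated lower, by at most -4.7e-05, and 2 separated higher. Hybridisation controls, bacterial and phage transcripts that are not of the mouse, stood higher in 18 of 18, by at most 6.14e-05, and 16 were separated. Their part in the members' differences was not tested.

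Since both rescalings moved nearly the whole table below 0, the sign of a member after rescaling says little, and members were read against the median difference of all probe sets. With medians subtracted 17 of the 17 members had lower means, as had 44672 of 45037 probe sets, and 10 lay below the median of -0.000764, among them all 7 probe sets of Ccn1, Ccn2 and Thbs1. Comp (-0.000603) and the 3 Thbs2 probe sets (-0.000702 to -0.00064) lay above it. These places were fixed by the deposited values, since subtracting medians moves every difference by the same amount. With quantile normalization 16 of the 17 were lower, as were 43968 of 45037 probe sets, 1, of Sparc, was at 0, and 13 lay below the median of -0.000538. Thbs2, Sparcl1, Thbs3, Thbs4 and all 7 probe sets of Ccn1, Ccn2 and Thbs1 were among those 13, and Comp and Sparc were not. Both Thbs1 probe sets and 3 of the 4 Ccn1 probe sets were the 5 still separated in the lower direction, and 0 were separated in the higher. The groups of Ccn2 (-0.00306) overlapped there, and those of the brightest Ccn1 probe set overlapped on both rescalings (-0.000697 and -0.00123).

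**Figure D5:**
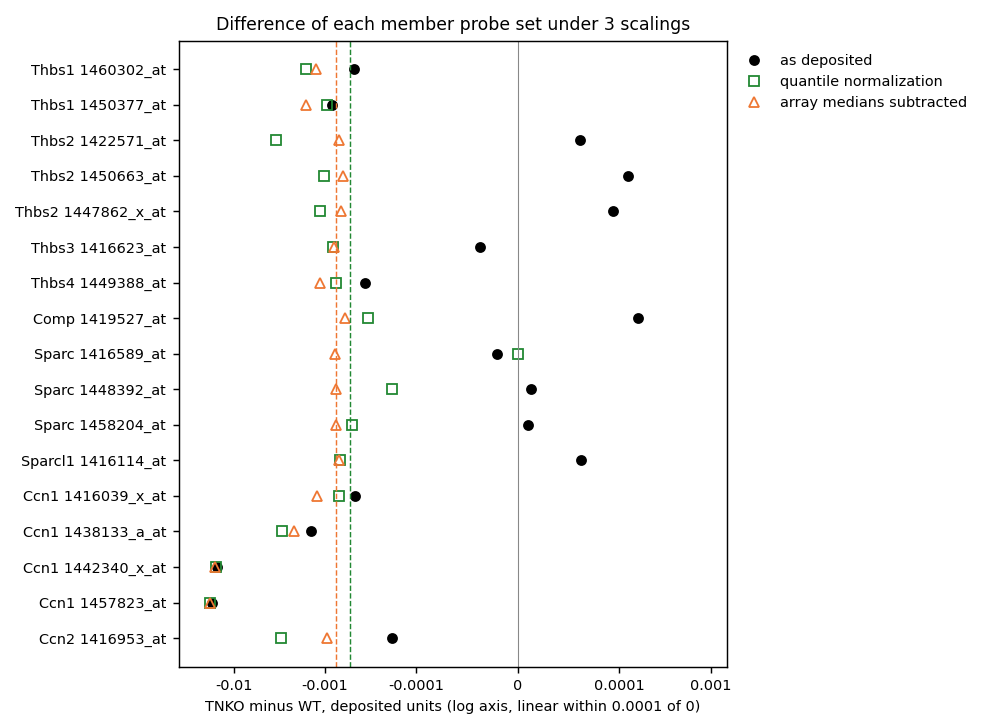
TNKO minus WT of each member probe set in deposited units as deposited (black), after quantile normalization (green squares) and with array medians subtracted (orange triangles), on a log axis that is linear within 0.0001 of 0. Dashed lines are the median difference of all probe sets under the scaling of that colour, -0.000538 and -0.000764. The 7 probe sets of Thbs1, Ccn1 and Ccn2 lie left of the dashed line of each rescaling, and Comp lies right of it in both. With array medians subtracted, these sides are fixed by the deposited values.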

How the data were processed

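Per the labels' protocols, 100 ng of RNA per tumour was amplified and biotin-labelled by a kit that primes at 3' ends. The authors deposited 1 value per probe set and array, taken here to be log2 because of its range. How probes were summarized and normalized, and the log base, are not given in the sources used; the submitters' processing notes name R 2.7.2. All 6 array medians were 6.57 and differed by at most 0.0024.

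Tests of genes leave out 64 control probe sets. Symbols are those of the platform annotation: of 45037 probe sets 34945 had 1 symbol, 932 several and 9160 none. A gene with several probe sets stands at its brightest where 1 value is given (18193 genes). TNKO was compared with WT by limma 3.58.1 in R 4.3.3 (lmFit, eBayes, no trend) over all probe sets, with Benjamini-Hochberg adjustment and a threshold of 0.05; it was tested on simulated data. Two-sided p-values rest on 3 tumours per group, labelled biological replicates. Any 2 arrays shared 21 to 43 exactly equal values, so none was deposited in duplicate.

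Members, lists and alternatives were chosen with earlier results of these data known. Genes named are all members, and of each pathway list up to 3 genes with the smallest p. Tnc was named as the hosts' deficient gene, and epithelial markers to check the label. The further CCN genes, Dcn, Mrc1, Pf4 with its list and Cd36 were named after their values were seen. A rule to name genes of like pattern applied to no member, since 0 brightest probe sets spanned over 0.01. Alternatives were quantile normalization, array medians subtracted, eBayes with a trend or robust, brighter probe sets alone, the mean over a gene's probe sets, a replicate block, and each array left out in turn. Promoters are RefSeq's, GRCm38.p6.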

Additional observations from a re-analysis of the deposited data

How the results depend on the processing

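Member probe sets called stayed at 0 under every alternative that tested them. The mean over a gene's probe sets was run for the pathway lists only. Each of the 7 probe sets of Ccn1, Ccn2 and Thbs1 kept the lower direction wherever it was tested, with adjusted p from 0.0847 to 0.99. That kept direction says little, since it could hardly turn. Groups without overlap keep their sign when an array is left out. The eBayes variants, the brighter probe sets and the replicate block leave the difference unchanged, and the rescalings put nearly all probe sets below 0. Read against the median difference of all probe sets, all 7 stayed lower under each rescaling. With medians subtracted that was fixed in advance, since every difference moves by the same amount. Only quantile normalization could have changed it. Of 203 single results under an alternative 184 kept direction and side of the threshold and 19 turned. With quantile normalization Thbs2 turned to -0.00346, -0.00102 and -0.00115, Comp to -0.000335, Sparc to -0.000184 and -0.000509 and Sparcl1 to -0.000679. With array medians subtracted they turned to -0.000702, -0.00064 and -0.00067 for Thbs2, -0.000603 for Comp, -0.000751 and -0.000753 for Sparc and -0.000702 for Sparcl1. Both scalings put nearly all probe sets below 0 (44672 with medians subtracted and 43968 with quantile normalization, of 45037), so these turns say little of the members. Without 1 array Thbs4 ranged from -0.00117 to 0.000536, Sparc 1416589_at from -3.65e-05 to 4.45e-06, Sparc 1448392_at from -5.49e-06 to 3.42e-05 and Sparcl1 from -3.41e-05 to 0.00012.

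The 79 probe sets called over the whole table became 0 with quantile normalization (591 at an unadjusted p under 0.05), 285 among probe sets at or above the median level, and 0 to 73 without 1 array; the cause was not tested. The 8 member probe sets at an unadjusted p under 0.05 became 5 with quantile normalization, 0 with medians subtracted and 4 to 8 without 1 array. Over all 45037 probe sets the same count went from 9144 to 591, to 87 and to 6807 to 8443. Members separated higher went from 3 to 0 under both scalings, which moved nearly all probe sets down. Without 1 array they ranged from 3 to 4, and those separated lower from 7 to 8. Leaving out an array cannot make separated groups overlap, so these counts could only stay or rise. Pathway list genes called went from 0 to 2 with medians subtracted (Tnc and Cd36), to 2 among the brighter probe sets (Tnc and Cd44) and to 1 with the mean over a gene's probe sets (Tnc). As deposited the groups of Cd36, a thrombospondin receptor gene, overlapped, with a difference of 0.221 (limma adjusted p = 0.354). Same-numbered tumours did not deviate together (correlations of 0.029, -0.016 and 0.005 over probe sets). The labels do not say whether the numbers pair the tumours, and these correlations cannot decide it. With the replicate number as a block 0 probe sets were called, 7816 had an unadjusted p under 0.05, and 0 member probe sets were called. Comp was not tested among the brighter probe sets. The number of arrays limits all of these.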
